A study of Mus musculus with 2 samples.

Results

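The insulin-like growth factor (IGF) axis was followed gene by gene in single cells of the mouse aorta, through its ligands Igf1 and Igf2, the receptors Igf1r and Igf2r, and the binding proteins Igfbp2, Igfbp3, Igfbp4, Igfbp5, Igfbp6 and Igfbp7. These 10 genes were picked by symbol from the 32285 genes of the count matrices, and each symbol matched 1 row. No threshold on their measured levels was applied, but earlier results of these data were known when they were chosen. The comparison is between 2 droplet libraries, 1 of aortic cells of wild-type mice and 1 of MGP-KI mice, a knock-in with a mutated Mgp gene, which encodes matrix Gla protein, an extracellular inhibitor of bone morphogenetic protein (BMP) signalling. In both groups the animals were 1 month old and of both sexes, the adventitia had been stripped off before Liberase digestion, and DAPI-positive dead cells had been sorted out. The labels put both libraries in batch 1. The sources used here give neither the mutated residue nor the number of mice in each library. The series title places the study in BMP-regulated cell differentiation of the aortic media.

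IGF1 and IGF2 are secreted peptides that signal through the receptor tyrosine kinase IGF1R, while IGF2R carries IGF2 to lysosomes without such signalling. IGF binding proteins hold the ligands in plasma and matrix, and can either withhold them from the receptor or deliver them after proteases such as PAPP-A cut the binding protein. In arteries, IGF1 made by smooth muscle, fibroblasts and macrophages promotes growth and survival of smooth muscle cells.

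After filtering, 3588 wild-type and 6089 knock-in cells remained, with a median of 20396 and 11653 UMIs (unique molecular identifiers, counted RNA molecules) per cell, and 4 barcodes occurred in both libraries. The 10 clusters gave 4 named classes. Smooth muscle (SMC)-like cells numbered 291 and 2565, fibroblast-like cells 2720 and 2944, macrophage or monocyte-like cells 317 and 278, and endothelial-like cells 63 and 45, wild-type first here and throughout. Despite the removal of the adventitia, fibroblast-like cells formed 75.8% (wild-type) and 48.3% (knock-in) of all kept cells. All 8 listed SMC markers had UMIs in SMC-like and in fibroblast-like cells of both libraries. Their summed level was 40829 and 38532 UMIs per 1000000 in SMC-like cells, against 447 and 773 in fibroblast-like cells. Levels below are CPM, the UMIs of a gene per 1000000 UMIs of the same cells, which is not scaled to gene length, so levels are compared between cells and not between genes. Intervals are 95% and cover counting error only. With 1 library per genotype there was no test between genotypes, and a difference cannot be told apart from one between these 2 preparations. A gene counts as higher or lower when it had at least 50 UMIs over both libraries in the class and the libraries were at least 1.5-fold apart.

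**Figure D1:**
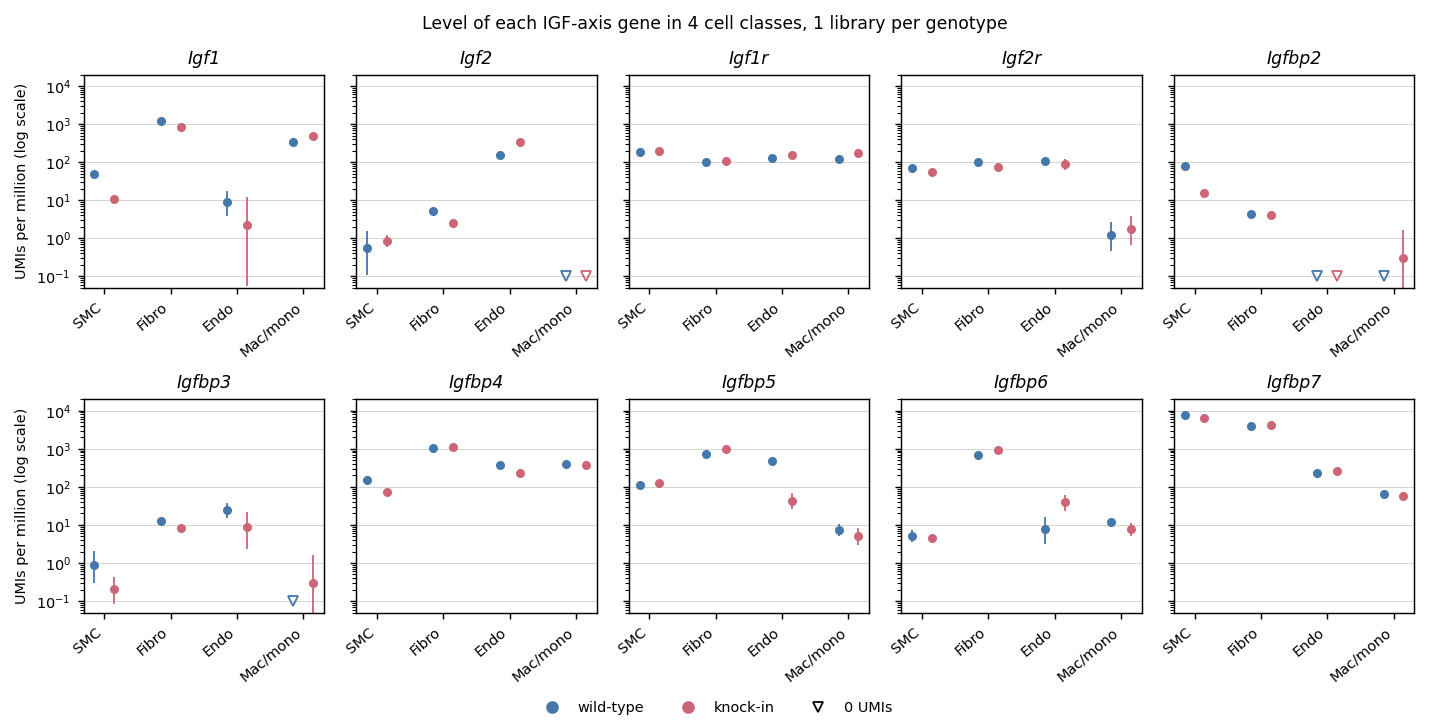
Level of the 10 genes (CPM, log scale) in the 4 named cell classes (left to right: SMC-like, fibroblast-like, endothelial-like, macrophage or monocyte-like), wild-type in blue and knock-in in red, with exact 95% Poisson intervals that are often smaller than the point. Open triangles mark 0 UMIs. Igf1 is highest in fibroblast-like cells, Igf2 in endothelial-like cells and Igfbp7 in SMC-like cells in both libraries.

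Across cell types the ligands had separate sources. Igf1 stood at 1227 CPM in wild-type and 854 CPM in knock-in fibroblast-like cells, followed by macrophage or monocyte-like cells with 336 and 476 CPM. SMC-like cells had 47.6 and 10.7 CPM of Igf1, and endothelial-like cells 9.01 and 2.17 CPM from 8 and 1 UMIs. Of all Igf1 UMIs in kept cells, 92.5% (wild-type) and 85.1% (knock-in) lay in fibroblast-like cells. The order of the 4 classes was the same in both libraries, and each class's interval stood clear of the next, except between SMC-like and endothelial-like cells of the knock-in. Igf2, an imprinted fetal growth factor, had 153 and 334 CPM in endothelial-like cells against 5.18 and 2.57 CPM in fibroblast-like cells. No Igf2 UMI was seen in 317 wild-type or 278 knock-in macrophage or monocyte-like cells, where the upper bounds of the level were 0.771 and 1.10 CPM.

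The receptors were spread more evenly. Igf1r ranged from 104 CPM in fibroblast-like to 183 CPM in SMC-like cells of the wild-type, and from 109 to 198 CPM in the same classes of the knock-in. Igf2r lay between 53.6 and 106 CPM in SMC-like, fibroblast-like and endothelial-like cells of both libraries. Airn, a noncoding RNA, is transcribed across Igf2r from the opposite strand, and as the strand setting of the counting is not known, all Igf2r levels and ratios may include its reads and are uncertain. In macrophage or monocyte-like cells it had 6 UMIs in each library, or 1.25 and 1.78 CPM. These cells therefore had Igf1r UMIs (569 and 592) with almost none of Igf2r, and the estimated free RNA alone would give 1.22 and 0.649 CPM of Igf2r.

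Each binding protein had its own distribution. Igfbp7, which binds insulin-like growth factors weakly and is abundant in vessel walls, had 7596 and 6390 CPM in SMC-like cells, 3934 and 4177 CPM in fibroblast-like cells, and 226 and 267 CPM in endothelial-like cells. Of the endothelial-like level, free RNA was estimated to give 94.8 and 25.5 CPM. Igfbp6, a binder that prefers IGF2, was at 702 and 905 CPM in fibroblast-like cells and at 5.23 and 4.48 CPM in SMC-like cells, where free RNA alone was estimated to give 4.91 and 3.83 CPM. Igfbp4, an inhibitory binder cut by PAPP-A, was at 1072 and 1101 CPM in fibroblast-like cells and at 397 and 384 CPM in macrophage or monocyte-like cells. Igfbp2 and Igfbp7 were the binding proteins whose level in SMC-like cells exceeded that in the other 3 classes in both libraries, with Igfbp2 at 79.5 and 15.5 CPM against 4.24 and 4.02 CPM in fibroblast-like cells. In macrophage or monocyte-like cells, Igfbp5, Igfbp6 and Igfbp7 had 7.52, 11.7 and 64.1 CPM in the wild-type, of which 77.0%, 82.0% and 90.8% was within the estimated free RNA, so these were read as background.

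In SMC-like cells, 8 of the 10 genes reached 50 UMIs. None was higher in the knock-in and 3 were lower, namely Igf1, Igfbp2 and Igfbp4. Over all 12318 genes measured in these cells, 8.28% were higher and 6.83% lower (15.1% either way), and the median log2 ratio of knock-in to wild-type was -0.04 for all genes and -0.33 for the 8 members. In cluster 5 alone, 3 of 8 members were lower (Igf1, Igfbp2 and Igfbp4) and 1 was higher (Igfbp5), beside 7.02% lower and 8.88% higher among all genes, and in cluster 4, 2 of 7 were lower and none higher, beside 7.91% and 10.9%. Igf2 (3 and 29 UMIs) and Igfbp3 (5 and 7 UMIs) were too few for a ratio.

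Igfbp2, a binding protein that also attaches to integrins and proteoglycans, had 441 UMIs in 291 wild-type and 521 UMIs in 2565 knock-in SMC-like cells. The log2 ratio was -2.36 (-2.55 to -2.18), a 5.15-fold lower level in the knock-in. After thinning each cell to 5000 UMIs, which left out 5 wild-type and 29 knock-in cells, an Igfbp2 UMI was present in 11.5% (8.08 to 15.8) of 286 wild-type cells and 2.96% (2.33 to 3.69) of 2536 knock-in cells. The intervals of the libraries did not overlap on either scale. In macrophage or monocyte-like cells, which should lack the gene, the thinned count was 0 of 310 and 0 of 272 cells, with upper bounds of 1.18% and 1.35%. The difference had the same direction and passed 1.5-fold in female cells (-2.28), in male cells (-2.46), in SMC-like cluster 4 (-1.91) and in SMC-like cluster 5 (-2.25).

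The Igfbp2 signal sat in few cells. The 15 highest wild-type cells, 5% of the class, contained 78.9% of the Igfbp2 UMIs, and in the knock-in the 129 highest cells contained 94.8%. The median SMC-like cell had 0 Igfbp2 UMIs in both libraries. In cluster 4, led by Sncg, Pln and Timp4, 7 of 42 wild-type cells (16.7%) and 12 of 209 knock-in cells (5.74%) had at least 5 Igfbp2 UMIs. In cluster 5, led by Mylk4, Npnt and Sost, the counts were 14 of 249 (5.62%) and 12 of 2356 cells (0.509%). Such cells contained 92.5% and 69.5% of the Igfbp2 UMIs of cluster 4 and 83.1% and 55.0% of those of cluster 5. Rich cells were thus a smaller share of the knock-in cells in both clusters. These counts were not thinned, and median depth in SMC-like cells was 17397 and 12217 UMIs.

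Igfbp2 and Igfbp5 are next to each other on mouse chromosome 1, and in SMC-like cluster 5 they went opposite ways, so the sequence before each start is shown. Both are from RefSeq on build GRCm38.p6, 250 bases up to the start, at chr1:72824230-72824479 on the plus strand for Igfbp2 (the first of 2 annotated windows) and chr1:72874866-72875115 on the minus strand for Igfbp5. Capitals mark CACGTG, the palindromic E-box.
Igfbp2: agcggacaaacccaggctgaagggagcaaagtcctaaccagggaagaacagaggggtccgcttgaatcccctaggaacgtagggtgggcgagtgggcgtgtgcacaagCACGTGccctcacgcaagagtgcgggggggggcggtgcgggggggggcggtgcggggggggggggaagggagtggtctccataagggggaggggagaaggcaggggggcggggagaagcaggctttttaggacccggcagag
Igfbp5: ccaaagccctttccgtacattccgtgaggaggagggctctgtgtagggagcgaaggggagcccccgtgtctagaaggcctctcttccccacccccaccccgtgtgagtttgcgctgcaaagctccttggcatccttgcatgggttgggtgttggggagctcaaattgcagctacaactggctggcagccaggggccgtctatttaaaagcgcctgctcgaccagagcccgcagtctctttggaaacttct
The windows differ in base composition, with 67.2% G and C for Igfbp2 and 58.8% for Igfbp5. The 6 letters CACGTG, which read the same on both strands, occurred once in the Igfbp2 window, not in the Igfbp5 window, and in 6.04% of the 32536 RefSeq windows of this length. The second Igfbp2 window, not shown, did not hold these letters. Among the other members only Igf2r held them, with 2 copies. TATAAA and GGCGCC were also searched for and occurred in neither window shown. These are matches of letters in a window and no measure of binding.

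Igfbp5, a matrix-bound binding protein, had 630 UMIs in wild-type and 4313 UMIs in knock-in SMC-like cells, or 114 and 128 CPM, a log2 ratio of 0.17 (0.05 to 0.29). Within the clusters the ratios were larger. In cluster 5 the level was 24.8 CPM in the wild-type and 53.5 CPM in the knock-in, a log2 ratio of 1.11 (0.84 to 1.39), and in cluster 4 it was 682 and 1013 CPM, with 0.57 (0.43 to 0.71). Cluster 4, which had far more Igfbp5 per cell, supplied 42 of 291 wild-type but only 209 of 2565 knock-in SMC-like cells, so the pooled level was weighted towards it in the wild-type. In each cluster the knock-in was higher by more than in the class as a whole, though in cluster 4 this was seen in male cells (1.42) and not in female cells (0.07, -0.14 to 0.28). That split rested on few wild-type cells, 20 male and 14 female. The 3 highest of the 42 wild-type cells of cluster 4 held 42.7% of their Igfbp5 UMIs.

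Igfbp5 in SMC-like cells also depended on which cells were taken. The log2 ratio was 1.05 (0.85 to 1.25) in male and -0.17 (-0.36 to 0.02) in female cells, while within cluster 5 both sexes were higher, with 1.43 in male and 1.05 in female cells. In cells of 8000 to 20000 UMIs it was -0.42. Where a UMI of any of 7 posterior Hox genes, which mark the posterior body axis, was present, the ratio was -0.73 (36 and 119 cells), and in the other 255 and 2446 cells it was 0.82. The pooled Igfbp5 value of SMC-like cells therefore has no stable sign, whereas cluster 5 was higher in both sexes and in cells of 8000 to 20000 UMIs (0.70).

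Igf1 in SMC-like cells had 264 and 360 UMIs, or 47.6 and 10.7 CPM, with a log2 ratio of -2.16 (-2.39 to -1.92). Of the wild-type UMIs, 105 came from 1 cell, and without the highest cell of each library the ratio was -1.55. With doublets kept, which also moved cells between clusters, it was -0.60 from 132 and 563 UMIs, so its size depended on few cells. The thinned share of cells with an Igf1 UMI was 8.74% (5.74 to 12.6) in the wild-type and 3.04% (2.40 to 3.78) in the knock-in, against 3.33% (0.406 to 11.5) and 0% (0 to 9.03) in endothelial-like cells, which should lack the gene, at median depths of 12557 and 8820 UMIs. The share in neither library could be set apart from that background, and the estimated free RNA amounted to 9.33% (wild-type) and 25.8% (knock-in) of these Igf1 UMIs. The summed level of the 8 fibroblast markers in SMC-like cells was also lower in the knock-in, at 6396 and 3766 CPM, and its part in the Igf1, Igfbp2 and Igfbp4 differences was not tested. With at least 2000 UMIs per cell, with at most 5% mitochondrial UMIs or with doublets kept, an unnamed cluster that had Igfbp2 among its leading genes and scored close on SMC and fibroblast markers stood apart from both classes. The Igfbp2 ratio of the cells then named SMC-like was -2.36, -2.03 and -2.29.

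Igfbp4 in SMC-like cells had 154 and 71.8 CPM, a log2 ratio of -1.10 (-1.21 to -0.99). The thinned share of cells with a UMI was 33.9% (28.4 to 39.7) and 16.2% (14.8 to 17.7), so the intervals did not overlap. In cluster 5 the level was 90.1 and 33.0 CPM and the log2 ratio -1.45 (-1.61 to -1.28). In cluster 4 the level was 563 and 533 CPM, with overlapping intervals and a log2 ratio of -0.08 (-0.24 to 0.08). Cluster 4 held 422 of 854 Igfbp4 UMIs in the wild-type and 1395 of 2421 in the knock-in, from 42 of 291 and 209 of 2565 SMC-like cells, so the pooled ratio also carries the smaller share of cluster 4 among knock-in cells.

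The remaining members differed less than 1.5-fold in SMC-like cells. Igf1r was at 183 and 198 CPM with a log2 ratio of 0.12 (0.02 to 0.21), and Igf2r at 71.4 and 53.6 CPM with -0.41 (-0.57 to -0.25). Igfbp7, seen in 291 of 291 cells of the wild-type and 2564 of 2565 of the knock-in, had a log2 ratio of -0.25 (-0.26 to -0.23), and its UMIs were spread widely, with 12.6% and 11.5% of them in the top 5% of cells. Igf2r was at least 1.5-fold lower in female SMC-like cells (-0.63) and in cells with a posterior Hox UMI (-0.81), but not in male cells (-0.23).

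**Figure D2:**
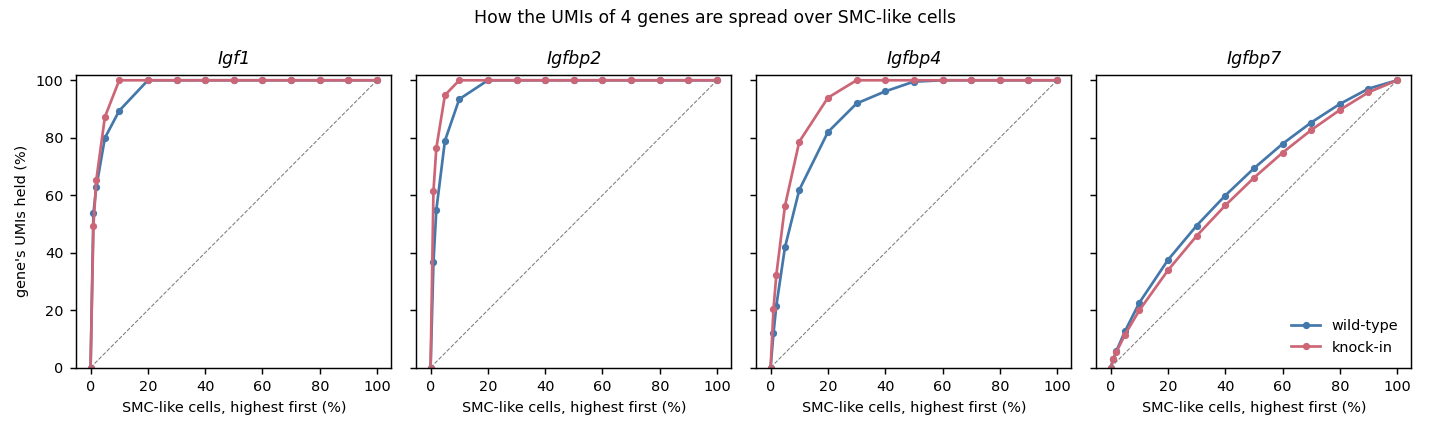
Cumulative share of a gene's UMIs (%) against SMC-like cells ordered from highest to lowest (%), for Igf1, Igfbp2, Igfbp4 and Igfbp7, wild-type in blue and knock-in in red, with an even spread as the dashed line. Igfbp2 climbs steeply, with 78.9% (wild-type) and 94.8% (knock-in) of its UMIs in the top 5% of cells, against 12.6% and 11.5% for Igfbp7.

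Fibroblast-like cells had 57509787 and 33048277 UMIs in all, and all 10 genes reached 50 UMIs. In the knock-in none was higher and 2 were lower, Igf2 and Igfbp3, beside 7.5% higher and 7.65% lower (15.1% either way) among all 14136 genes measured. The median log2 ratio was -0.02 for the members and -0.07 for all genes. The largest cluster of the class was cluster 1 in the wild-type (1264 of 2720 cells) and cluster 0 in the knock-in (1371 of 2944), with median depths of 15810 and 6188 UMIs in cluster 0, so each gene is also given by cluster. Cluster 0 was led by Meox2, Klf5 and Gdf10, cluster 1 by Pex5l and Fmod, and cluster 2 by Dact2, Aldh1a3 and Wnt2.

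**Figure D3:**
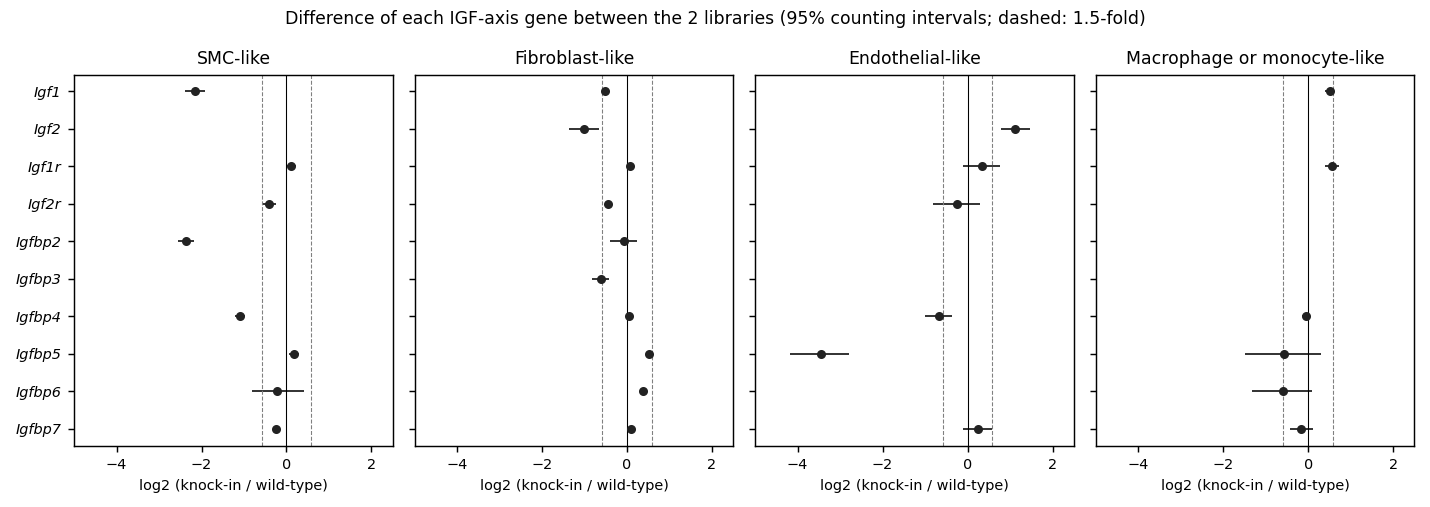
log2 ratio of knock-in to wild-type level for each gene with at least 50 UMIs in the class (points, with exact 95% counting intervals), in 4 classes, with dashed lines at 1.5-fold. Igf1, Igfbp2 and Igfbp4 lie left of the dashed line in SMC-like cells, and Igfbp5 of endothelial-like cells at -3.45.

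Igf1 was lower in all 3 fibroblast-like clusters, though not by 1.5-fold in the class as a whole. Its level was 658 and 422 CPM in cluster 0, with a log2 ratio of -0.64, then 1708 and 1297 CPM in cluster 1, with -0.40, and 797 and 392 CPM in cluster 2, with -1.02 (-1.09 to -0.96). For the class the log2 ratio was -0.52 (-0.54 to -0.50). The size of the class value varied with the cells chosen, from -0.72 in male to -0.19 in female cells and -0.15 at a depth of 8000 to 20000 UMIs. With the libraries clustered separately it was 0.02, from 1464 and 2007 fibroblast-like cells. That setting left a wild-type cluster of 1247 cells, with Pex5l and Fmod among its leading genes, unnamed. The knock-in cluster of 1509 cells led by Fmod and Pex5l was named fibroblast-like, so the 0.02 compared unlike cells. Cluster 2 of the joint clustering kept a lower level, with -0.99 in female cells, -1.04 in male cells and -1.49 at 8000 to 20000 UMIs.

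Igf2 was scarce in fibroblast-like cells, with 298 UMIs in 204 of 2720 wild-type and 85 UMIs in 75 of 2944 knock-in cells, a log2 ratio of -1.01 (-1.38 to -0.66). Cluster 2 accounted for most of the difference, with 120 wild-type and 2 knock-in UMIs in 621 and 323 cells, a log2 ratio of -4.67 (-7.74 to -2.79). In cluster 1 the counts were 147 and 67 UMIs and the ratio -0.32 (-0.75 to 0.11), which did not leave out 0. After thinning, an Igf2 UMI was present in 3.73% (2.38 to 5.54) of the cluster 2 cells of the wild-type and 0% (0 to 1.16) of those of the knock-in, with median depths of 24120 and 19165 UMIs before thinning.

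H19, a noncoding RNA from the imprinted locus next to Igf2, was lower in the same cells. It had 761 and 63 UMIs in fibroblast-like cells, a log2 ratio of -2.80 (-3.19 to -2.42), and 675 and 26 UMIs in cluster 2, with -3.47 (-4.09 to -2.90). In wild-type cluster 2, 32 of the 67 cells with an Igf2 UMI also had an H19 UMI (47.8%), against 14.1% of the cells without Igf2, with median depths of 24375 and 24099 UMIs. Igf2 and H19 UMIs thus fell in the same wild-type cells more often than in the rest of that cluster, at like depth. The knock-in had 2 cells with Igf2, too few to compare. Of the Igf2 RNA-binding proteins that bind this transcript in embryonic tissue, Igf2bp2 (1035 and 380 UMIs, log2 ratio -0.65) and Igf2bp3 (508 and 176 UMIs, -0.73) were also lower in fibroblast-like cells, so all 3 measured genes of this list of 4 were lower, against 7.65% of all genes. In cluster 2 all 3 were lower as well, against 10.8% of all genes there, and in cluster 1 none of the 3 was, against 6.96%. The list was chosen with earlier results of these data known, so these counts are a description only.

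Igfbp3, the main carrier of IGFs in plasma, had 748 and 281 UMIs in fibroblast-like cells, a log2 ratio of -0.61 (-0.82 to -0.41), which fell short of 1.5-fold when the highest cell of each library was left out (-0.55). In cluster 0 the counts were 67 and 7 UMIs, with -2.88 (-4.25 to -1.76). Cluster 2 had 263 and 21 UMIs, with -2.41 (-3.13 to -1.77), while cluster 1 had 418 and 253 UMIs, with 0.09 (-0.14 to 0.32) over all its cells but -0.81 (-1.09 to -0.52) in those of 8000 to 20000 UMIs. Within cluster 2, male cells had 200 and 1 UMIs, a log2 ratio of -6.34 with a wide interval (-11.66 to -3.85), and female cells had 58 and 20 UMIs, with -0.18 (-0.99 to 0.58). The lower Igfbp3 of cluster 2 was thus seen in male cells, and the sexes' intervals did not overlap. No test of that difference was possible with 1 library per genotype, and it rested on few cells. The 2 highest knock-in cells of cluster 2 had 13 and 5 of its 21 UMIs, and the highest wild-type cell had 65 of 263. Few cells carried the gene: in cluster 2, 76 of 621 cells of the wild-type and 5 of 323 of the knock-in had a UMI.

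Igfbp5 was higher in every fibroblast-like cluster of the knock-in. By cluster the level was 388 and 858 CPM in cluster 0, 392 and 732 CPM in cluster 1, and 1580 and 1960 CPM in cluster 2. The log2 ratios were 1.14 (1.09 to 1.19), 0.90 (0.86 to 0.94) and 0.31 (0.28 to 0.34), and 0.51 (0.49 to 0.53) in the class as a whole, below 1.5-fold. The thinned share of cells with an Igfbp5 UMI was 46.0% in the wild-type (44.1 to 48.0) and 61.3% in the knock-in (59.3 to 63.3). Both sexes had higher levels, with 0.52 in female and 0.64 in male fibroblast-like cells, as did cells of 8000 to 20000 UMIs with 0.62. By cluster, 1 of 8 members in cluster 0 and 1 of 10 in cluster 1 were higher, Igfbp5 in each case, beside 6.05% and 8.56% of all genes, and 2 and 0 were lower, beside 6.74% and 6.96%.

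Igfbp6 marked clusters 0 and 2 against cluster 1, with 872 and 996 CPM, 1670 and 2789 CPM, and 112 and 101 CPM. It was higher in the knock-in in cluster 2, with a log2 ratio of 0.74 (0.71 to 0.77), and near even in cluster 0 (0.19) and cluster 1 (-0.15). For the whole class the ratio was 0.37 (0.35 to 0.39), and -0.45 with the libraries clustered separately, which compared unlike fibroblast-like cells. The 0.37 was made of 0.73 in male and -0.11 in female cells, with intervals on opposite sides of 0. In cluster 2, however, both sexes were higher, with 0.60 in female and 0.85 in male cells. Of the 9 members measured in cluster 2, Igfbp6 was the only one higher by 1.5-fold, and Igf1, Igf2 and Igfbp3 were lower, beside 5.7% higher and 10.8% lower among all genes there.

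**Figure D4:**
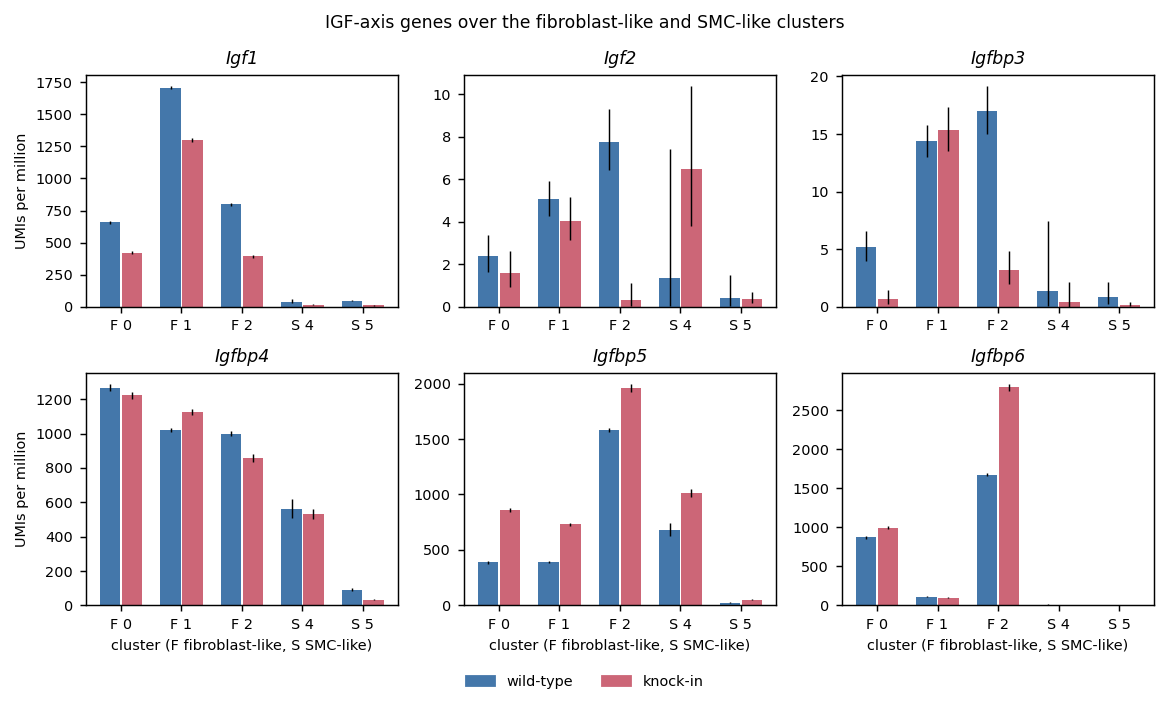
Level (CPM, linear scale, exact 95% Poisson intervals) of 6 genes in fibroblast-like clusters 0, 1 and 2 (F) and SMC-like clusters 4 and 5 (S), wild-type in blue and knock-in in red. Igfbp5 is higher in the knock-in in all 5 clusters, while Igf2 and Igfbp3 of cluster 2 are lower.

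The other members were under 1.5-fold apart over all fibroblast-like cells. Igfbp4 had a log2 ratio of 0.04, Igfbp7 of 0.09 and Igf1r of 0.07, each with an interval above 0. The signs of Igfbp4 and Igfbp7 were not stable. Igfbp4 was at -0.03 (-0.06 to -0.003) in male cells, and Igfbp7 at -0.08 (-0.09 to -0.06) in cells of 8000 to 20000 UMIs. Igfbp2 had 4.24 and 4.02 CPM, with a log2 ratio of -0.08 (-0.39 to 0.23) that was not stable. It became -1.30 without the highest cell of each library and 1.00 at 8000 to 20000 UMIs, and ranged from -3.66 to 1.00 over 13 alternatives. Nearly all of the Igfbp2 UMIs of this class were in cluster 1 (238 and 130), where 11 wild-type and 3 knock-in cells with at least 5 UMIs contained 66.4% and 88.5% of them. Igf2r was lower in clusters 0, 1 and 2, with -0.50, -0.35 and -0.40, and in the class with -0.44 (-0.51 to -0.37), short of 1.5-fold.

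**Figure D5:**
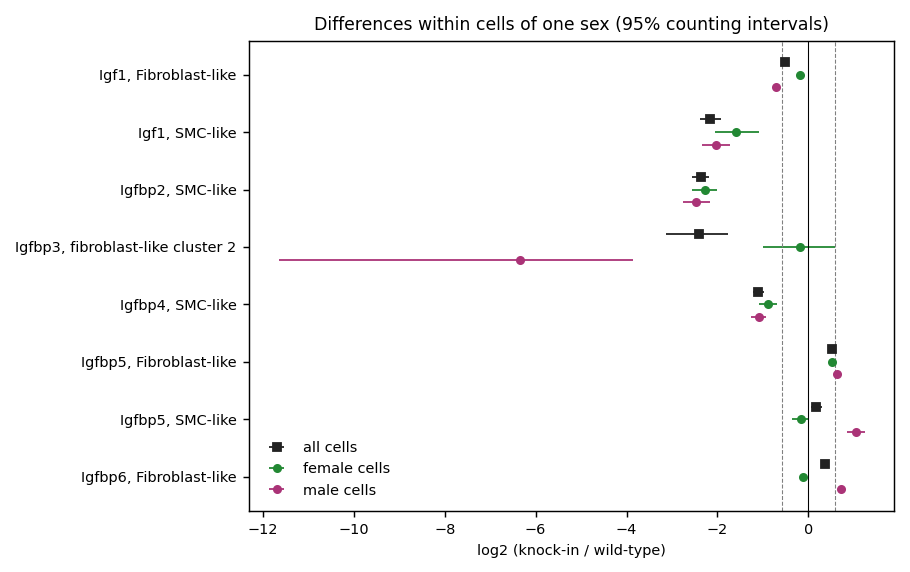
log2 ratio of knock-in to wild-type level in all cells (black squares), female cells (green) and male cells (purple) of the named class or cluster, with exact 95% counting intervals and dashed lines at 1.5-fold. Igfbp2 of SMC-like cells is lower in both sexes, while Igfbp3 of fibroblast-like cluster 2 is at -6.34 in male and -0.18 in female cells. The knock-in Igfbp3 UMIs of cluster 2 came from few cells.

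Endothelial-like cells were few, and 6 of the 10 genes reached 50 UMIs. Igf2 was higher in the knock-in, and Igfbp4 and Igfbp5 were lower, beside 7.85% higher and 11.5% lower (19.3% either way) among 4548 genes. Igf2 had 136 and 154 UMIs, each from 20 cells, with 64 of the wild-type UMIs in 1 cell and 35 of the knock-in UMIs in 1 cell. The log2 ratio was 1.13 (0.78 to 1.47), but the thinned share of cells with an Igf2 UMI overlapped widely, at 28.3% (17.5 to 41.4) and 33.3% (19.1 to 50.2), and in cells of 8000 to 20000 UMIs the ratio was -0.18. The higher Igf2 therefore rested on few cells. Igfbp4 had 336 and 109 UMIs, or 378 and 237 CPM, with a log2 ratio of -0.68, and was seen after thinning in 66.7% (53.3 to 78.3) and 33.3% (19.1 to 50.2) of cells. The ratio was -0.23 (-0.67 to 0.21) in female and -2.05 in male cells, and at 8000 to 20000 UMIs it was -0.49, short of 1.5-fold.

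Igfbp5 of endothelial-like cells, at 473 and 43.4 CPM with a log2 ratio of -3.45 (-4.17 to -2.80), came from a handful of cells. In the wild-type, 5 cells that carried UMIs of both Prox1 and Mmrn1, markers of lymphatic endothelium, held 403 of the 420 wild-type Igfbp5 UMIs, at 7598 CPM. The knock-in had 1 such cell, with 9 UMIs. In the other 58 and 44 cells the counts were 17 and 11 UMIs, or 20.4 and 24.5 CPM. The Igfbp5 difference of this class thus rested on the cells with lymphatic markers and was not seen in the rest. Igf1r (126 and 158 CPM), Igf2r (106 and 89.0 CPM) and Igfbp7 (226 and 267 CPM) had ratios whose intervals included 0, and Igfbp2 had 0 UMIs in both libraries. For Igfbp7 the estimated free RNA amounted to 41.9% (wild-type) and 9.56% (knock-in) of these UMIs. Its ratio compares levels with unlike background and is uncertain.

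Macrophage or monocyte-like cells were the only class with a higher Igf1 level in the knock-in. They had 1610 and 1602 UMIs, or 336 and 476 CPM, a log2 ratio of 0.50 (0.40 to 0.60), just short of 1.5-fold. An Igf1 UMI was present after thinning in 72.9% (67.6 to 77.8) and 84.2% (79.3 to 88.3) of the cells, so these intervals did not overlap either. Both sexes showed it, with 0.70 in female and 0.38 in male cells. Igf1r, the receptor for the same ligand, was likewise higher, at 119 and 176 CPM with 0.57 (0.40 to 0.74). Igfbp4 was level, with -0.05 (-0.15 to 0.05). Most of these cells, 289 of 317 and 257 of 278, carried a UMI of Lyve1, a receptor of resident perivascular macrophages, and among them the Igf1 ratio was 0.48. Of 6 members measured, none was higher and 1 was lower, Igfbp6 with 56 and 26 UMIs at its free RNA level and an interval of -1.33 to 0.10, beside 5.26% higher and 5.83% lower (11.1% either way) among 9153 genes.

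One cluster without a name had large Igfbp5 and Igfbp6 values. Cluster 9, with 62 wild-type and 184 knock-in cells, contained 7 wild-type cells with UMIs of both Upk3b and Msln, markers of mesothelium, and no such knock-in cell. Those 7 cells held 2943 of the cluster's 3000 wild-type Igfbp5 UMIs and 1098 of its 1137 Igfbp6 UMIs. Without them, Igfbp5 was higher in the knock-in with a log2 ratio of 0.97 (0.56 to 1.41), where with them it was -4.43. Igfbp3 had 59 and 7 UMIs without them, with -4.38. The highest knock-in cell held all 7, and 4 of the 62 wild-type cells held 98.3% of the 59, so this ratio rested on few cells. The wild-type cells of this cluster were nearly all male by their sex-linked transcripts (57 male and 3 female).

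Of the 20 genes of receptor signalling, from insulin receptor substrates to mTOR, all were measured in SMC-like cells and none was 1.5-fold apart, against 15.1% of all genes. In SMC-like cluster 4, 5 of 18 were higher and 2 lower, against 10.9% and 7.91% of all genes there, among them Irs2, an insulin receptor substrate, with 70 and 743 UMIs and a log2 ratio of 1.60, Insr with 1.07 and the adaptor Grb2 with -0.69. In fibroblast-like cells 1 of 20 was lower (all genes 7.65%), Grb10, an imprinted adaptor that restrains IGF1R signalling, with 232 and 147 CPM and -0.65 (-0.70 to -0.61). The list's median log2 ratio was 0.09 in both classes. Among macrophage or monocyte-like cells, 1 of 17 was higher, near the 5.26% of all genes. This was the transcription factor gene Foxo4, with 18 and 35 UMIs and 1.47 (0.61 to 2.38). Endothelial-like cells had 2 of 11 higher and 2 lower, against 7.85% and 11.5% of all genes, among them Insr, the insulin receptor, with 0.72 (-0.03 to 1.47) and Grb10 with -0.65 (-1.23 to -0.10).

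Genes that promote or restrain the release of IGF from its binding proteins went in mixed directions. Of the 6 in this list, Pappa2, a protease that cuts IGFBP3 and IGFBP5, was higher in SMC-like cells (5 and 104 UMIs, 99 of the latter in cluster 4, log2 ratio 1.77, 0.51 to 3.43) and lower in fibroblast-like cells (230 and 71 UMIs, -0.90). Stc1, a stanniocalcin that inhibits PAPP-A, was lower in both, with -0.79 and -1.13. These were the 2 genes called of 6 in each class. Among all genes, 8.28% were higher and 6.83% lower in SMC-like cells, and 7.65% were lower in fibroblast-like cells. The list's median was -0.20 in SMC-like and -0.50 in fibroblast-like cells. In endothelial-like cells the 1 measured gene of the list, Htra1, a secreted protease, was lower with 1078 and 566 CPM (-0.93), beside 11.5% of all genes. Of 9 genes of the growth hormone axis, which drives Igf1 in liver, 6 were measured in SMC-like cells, 1 higher and 1 lower. In fibroblast-like cells 2 of 8 were higher (all genes 7.5%), and in macrophage or monocyte-like cells 1 of 4 (all genes 5.26%). None of 6 was 1.5-fold apart in endothelial-like cells. Stat5a was higher in SMC-like (0.63, 0.09 to 1.23), fibroblast-like (0.63, 0.42 to 0.84) and macrophage or monocyte-like cells (0.70, 0.13 to 1.27). Igfals was higher in fibroblast-like cells from 25 and 29 UMIs (1.01, 0.19 to 1.85). Socs3, a feedback inhibitor of cytokine receptors, was lower in SMC-like cells with 252 and 146 CPM (-0.79).

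The genes whose levels most resembled each member over 20 blocks of cells (a cluster in 1 library) were found among 6538 genes by Pearson's r of log2(CPM + 1). This is a description, since blocks share libraries and depth. Igfbp2 was closest to Map3k7cl (0.92), Mlf1 (0.90) and Erbb4 (0.85). Igfbp7 was closest to Cryab (0.99), a small heat shock protein of muscle, then Fstl3 and Nrtn (0.97 each). Igfbp6 followed Opcml and Gfpt2 (0.94 each), Igfbp5 followed Numbl (0.91), Igfbp4 followed Trim2 (0.89) and Igfbp3 followed Shc1 (0.87). Igf2 was closest to Cadps2 (0.94) and next to Adcy4 and Ptprb (0.90 each), and Igf1 to Pmp22 (0.89) and Cd302 (0.88). Igf1r was closest to Tns1 (0.89). Igf2r was closest to Airn (0.97), whose reads may not have been kept apart from its own.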

How the data were processed

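The deposited matrices hold unnormalised UMI counts for every gene, produced by the authors using Cell Ranger 7.1.0 (named in the file headers), over all 1307634 wild-type and 1421297 knock-in barcodes, with 79626104 and 85831737 UMIs. The sources used here do not give the genome build, the annotation, the strand setting or whether intronic reads were counted, and coordinates are printed only for RefSeq promoters (GRCm38.p6). Cells had at least 1000 UMIs, 500 genes and at most 10% mitochondrial UMIs. Doublets were scored with scrublet (scanpy 1.11.5), and the highest 0.8% per 1000 cells, 109 and 330 cells, were removed, since its automatic threshold marked only 6 and 8.

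Both libraries were clustered together (2000 variable genes without the members, pathway genes and sex-linked genes, 30 components, 15 neighbours, Leiden 0.5, igraph 0.11.9). Clusters were named from marker lists by the share of cells with a UMI, unless the second list passed 0.75 of the best score. A cluster also stayed unnamed with few markers detected, or with low depth and no own marker among its leading genes. The same held where another list had more of the leading genes than its own. The score by share and the 0.75 limit replaced a first rule (log2 gain) after the clusters were seen. Sex was called per cell from Xist and Y-linked genes. The members and lists were chosen with earlier results of these data known.

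UMIs were summed per class and library. Log2 ratios carry exact conditional binomial intervals, levels Poisson and shares Clopper-Pearson intervals (95%, scipy 1.17.1). PCR and droplet noise beyond counting is not covered. Free RNA was profiled from barcodes of at most 100 UMIs and its share in a class estimated from the marker list of another type that was lowest relative to it. All members are named. Of each pathway list, up to 3 called genes with the most UMIs are named, or the most abundant gene (1 such gene is not reported here). The ratio step was tested on simulated data. Igfbp2-rich, Prox1 and Mmrn1, Upk3b and Msln, Lyve1 and posterior Hox subsets were chosen after values were seen. Alternatives covered cell filters, doublets, centring, clustering, depth, sex, the largest cluster, free RNA and the count minimum.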

Additional observations from a re-analysis of the deposited data

Results flagged for a closer look

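Several members moved in opposite directions in 2 cell classes or in the 2 sexes, with counting intervals that leave out 0 on each side and at least one of the values past 1.5-fold. None of these differences was tested, as each genotype has 1 library. For Igf1, the log2 ratio of knock-in to wild-type was 0.50 in macrophage or monocyte-like and -2.16 in SMC-like cells. For Igf2 it was 1.13 in endothelial-like and -1.01 in fibroblast-like cells, and the endothelial-like value turned to -0.18 in cells of 8000 to 20000 UMIs. Igfbp4 had 0.04 in fibroblast-like cells (-0.03 in the male ones) against -1.10 in SMC-like and -0.68 in endothelial-like cells, the last -0.23 in female cells. For Igfbp5 the values were 0.17 in SMC-like and 0.51 in fibroblast-like cells against -3.45 in endothelial-like cells. The SMC-like value had no stable sign, with -0.42 in cells of 8000 to 20000 UMIs. The endothelial-like value was 0.26 without the cells that carried Prox1 and Mmrn1 UMIs. Within fibroblast-like cells, Igfbp6 had -0.11 in female and 0.73 in male cells.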

How the results depend on the processing

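No paired analysis was possible because each genotype has 1 library, and for the same reason no replicate could be left out. Of 398 pairs of a member's log2 ratio and an alternative setting, 256 stayed within the counting interval, and 32 changed sign, 6 of them for a member at least 1.5-fold apart and 26 for one that was not. The number of members at least 1.5-fold apart, 3 in SMC-like cells, became 5 with a count minimum of 10 and 4 in female cells, in male cells, in the largest cluster, with doublets kept, and in cells with or without a posterior Hox UMI. In endothelial-like cells 3 became 5 with at least 2000 UMIs per cell, at most 5% mitochondrial UMIs, the members allowed among clustering genes, resolution 1.0 or a count minimum of 10, and 2 in female cells. In fibroblast-like cells 2 became 1 when ratios were centred on the median of all genes, 1 in female cells, 1 in the largest cluster, 5 in male cells and 4 at 8000 to 20000 UMIs per cell. In macrophage or monocyte-like cells 1 became 0 with at most 5% mitochondrial UMIs and 0 with free RNA subtracted. The 6 sign changes of members at least 1.5-fold apart were Igfbp3 of fibroblast-like cells in the largest cluster (0.093), Igfbp6 of macrophage or monocyte-like cells in male cells (0.062) and with free RNA subtracted (0.23), Igf2 of endothelial-like cells with the libraries clustered separately (-0.51) and at 8000 to 20000 UMIs (-0.18), and Igfbp5 of endothelial-like cells without Prox1 and Mmrn1 cells (0.26, an alternative chosen after seeing the data). The cause was not tested. The separate knock-in cluster behind the -0.51 had T cell genes among its leading genes. Of the others, Igfbp7 of endothelial-like cells kept its sign in 7 of 13 alternatives, Igfbp5 of SMC-like cells in 12 of 15, and Igfbp2 and Igfbp6 of fibroblast-like cells in 10 of 13 each. In SMC-like cells, Igfbp2 ranged from -2.47 to -1.51 and Igfbp4 from -1.87 to -0.72 over 15 alternatives, all past 1.5-fold. Igf1 there ranged from -2.45 to -0.41, past it in 14 of 15 (not in cells with a posterior Hox UMI), with -0.60 when doublets were kept and -1.55 without the highest cell of each library. Clustering the libraries separately left 1464 and 2007 fibroblast-like cells, with Igf1 at 0.02 and Igfbp6 at -0.45. The cluster with Pex5l and Fmod among its leading genes was then unnamed in the wild-type but not in the knock-in, so these ratios compared unlike cells. In SMC-like cells Igf2 and Igfbp3 had fewer than 50 UMIs, and no ratio is reported.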
